A study of Homo sapiens with 6 samples.

Results

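The 10 genes described here encode the core of the MYC, MAX and MXD transcription factor network: MYC, MAX, MXD1, MXD3, MXD4, MXI1, MNT, MLX, MLXIP and MGA. They were taken by symbol as factors of this network, with earlier results of these data known, and all 10 had 1 row each among the 39771 rows of the expression table. RNA sequencing of MOLM-13, a human acute myeloid leukaemia cell line that carries the MLL-AF9 translocation, gave 4 shLAMP5 libraries, from cells given a lentiviral hairpin against LAMP5, and 2 shNT libraries, from cells given a non-targeting hairpin. Both groups were selected with puromycin, and the comparison asks which transcripts differ after LAMP5 knockdown. The sources used here do not give the hairpin sequence or harvest time behind each library, nor whether replicates were separate cultures, so p-values measure a spread between libraries that may be technical.

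The network is a set of helix-loop-helix leucine zipper proteins that bind DNA as pairs, most of them at the E-box sequence CACGTG. MYC, which has to pair with MAX, raises transcription of genes for growth, ribosome building and metabolism. The MXD proteins, MXI1 and MNT compete for the same partner MAX and bring the SIN3 and histone deacetylase corepressor, MGA joins MAX in a variant polycomb complex, and MLX with MLXIP forms a parallel arm that responds to glucose metabolites. In myeloid cells MYC is known to decline, and MXD1 to be induced, as cells leave the cell cycle and differentiate.

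Read depth is unknown, since TPM (a level scaled to a fixed total per library and corrected for transcript length) keeps no record of read number. LAMP5 itself averaged 75.4 ± 9.89 TPM (SD, n = 4) in shLAMP5 and 226 ± 79.4 TPM (SD, n = 2) in shNT libraries, in the direction of the labels. The myeloid genes fixed as a check of the line (such as SPI1, FLT3, CD33 and MEIS1) were all 10 of 10 at tested levels. Of the markers of other cell types, 1 of 6 T cell, 1 of 6 B cell, 0 of 7 erythroid and megakaryocytic and 3 of 7 packaging cell and fibroblast genes were at tested levels, and PF4 and COL3A1 were listed at 0 in every library. The T cell gene TRAC had no matched row, so its level is unknown. The library shLAMP5 2 stood apart from the rest: its median scaling factor was 0.839, against 1.04 to 1.06 in the other shLAMP5 and 0.998 to 1.04 in the shNT libraries, and it lay at 55.9 on the first principal component, against -28.7 to 13.3 in the other 5.

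No member passed the test between the groups. With limma on log2(TPM + 1) over 13072 genes, 0 of 10 members had a Benjamini-Hochberg adjusted p under 0.05, and 0 genes of the whole table did (0% called higher and 0% called lower). At an unadjusted p under 0.05 stood 1 member, MXD1, on the higher side, against 3.72% of all genes higher and 5.25% lower. In 2 members, MXD1 and MXD4, the lowest shLAMP5 value exceeded the highest shNT value, a pattern shown by 8.25% of all genes. The opposite pattern, every shLAMP5 value under both shNT values, was found in 0 members and in 13.5% of all genes. Of the log2 fold changes, 5 were positive and 5 negative, with a median of -0.044, beside 49.3% positive and a median of -0.0060 over all genes.

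**Figure D1:**
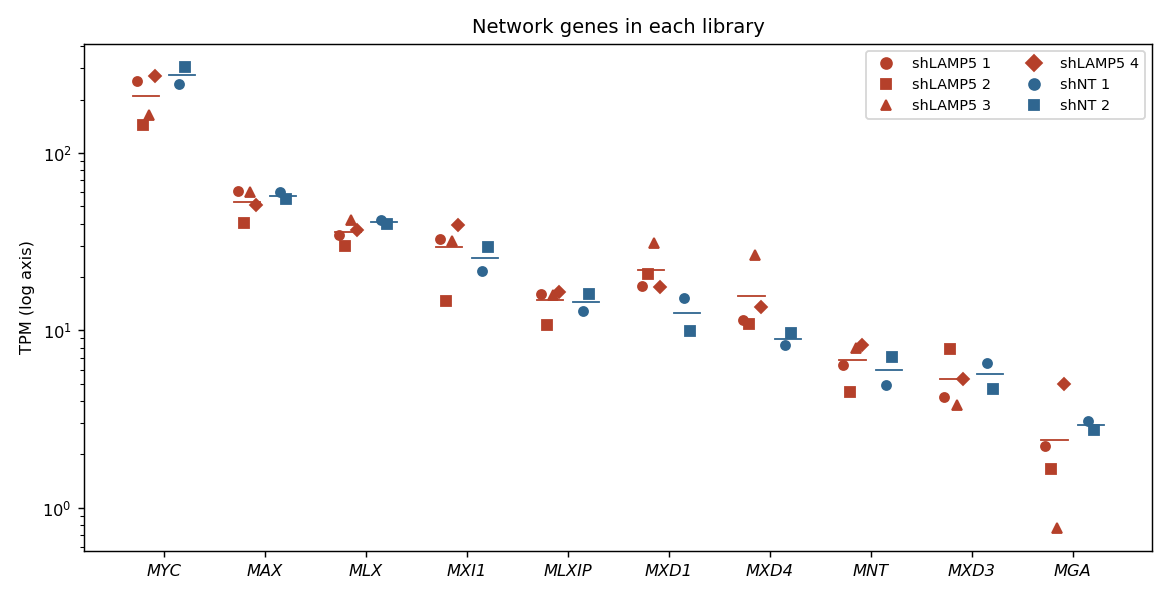
TPM of each network gene (log axis) in every library, with the 4 shLAMP5 libraries in red left of the 2 shNT libraries in blue, marker shapes giving the library number and short lines the group means. MYC lies above every other member in all 6 libraries, and only MXD1 and MXD4 have all red points above both blue ones.

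MYC was the most abundant member in both groups by a wide margin. It measured 256, 143, 165 and 273 TPM in shLAMP5 1 to 4, against 243 and 305 TPM in shNT 1 and 2. Libraries 1 and 4 of shLAMP5 lay inside the shNT range and 2 and 3 below it, so the groups overlapped. The group means were 209 ± 64.9 TPM (SD, n = 4) in shLAMP5 and 274 ± 43.7 TPM (SD, n = 2) in shNT, a log2 fold change of -0.43 with a 95% interval of -1.12 to 0.26 (adjusted p 0.690 by limma). An exact two-sided permutation test gave p 0.267, where the smallest p that 4 against 2 libraries allow is 0.0667. The log2 fold change became -0.27 without shLAMP5 2, -0.27 without shNT 2 and -0.60 without shNT 1. With library weights it was -0.12. Under median scaling, shLAMP5 2 came to 171 TPM and shLAMP5 3 to 159 TPM, still below the scaled shNT values of 244 and 295 TPM, and shLAMP5 1, at 241 TPM, then also lay just under them.

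The paralogs of MYC contributed little RNA. MYCN, the form best known from neuroblastoma, was listed at 0 in every library. MYCL had 3.30 to 8.59 TPM in shLAMP5 and 4.77 and 7.27 TPM in shNT libraries, so the groups overlapped (log2 fold change -0.13, adjusted p 0.938 by limma). MYCL was positive, at 0.050, without shLAMP5 2 and, at 0.13, without shNT 2.

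By a rule of smallest root mean square difference between centred log2(TPM + 1) profiles over the 6 libraries, 3 of 7197 genes searched lay nearest to MYC. They were C12orf29 (difference 0.042), SMARCC2 (0.047), a subunit of the BAF chromatin remodelling complex, and EXOSC7 (0.048), a subunit of the RNA exosome. SMARCC2 measured 27.1, 14.99, 18.8 and 30.3 TPM in shLAMP5 1 to 4, against 25.5 and 33.7 TPM in shNT 1 and 2, with the same low pair of libraries. Among so many genes and so few libraries near matches are many, and these are given as a description only.

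MAX, the shared partner, had overlapping groups. Its levels were 61.2, 40.5, 60.2 and 50.7 TPM in shLAMP5 1 to 4, against 60.1 and 54.7 TPM in shNT 1 and 2. Only shLAMP5 2 and shLAMP5 4 lay below the shNT range, and the highest value of all was in shLAMP5 1. The difference was -0.13 on the log2 scale (95% interval -0.64 to 0.39, adjusted p 0.898 by limma), and it was -0.0044 without shLAMP5 2. MYC RNA exceeded MAX RNA in every library, by 4.19, 3.54, 2.73 and 5.39 times in shLAMP5 1 to 4 and by 4.05 and 5.57 times in shNT 1 and 2, with overlapping groups.

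MXD1, the antagonist known for its induction on differentiation, had the largest log2 fold change among the members. It measured 17.8, 20.7, 31.3 and 17.5 TPM in shLAMP5 1 to 4, against 15.2 and 9.89 TPM in shNT 1 and 2. Every shLAMP5 library lay above both shNT libraries, although shLAMP5 1 and 4 exceeded shNT 1 by less than the shNT libraries differed from each other. The means were 21.8 ± 6.44 TPM (SD, n = 4) in shLAMP5 and 12.6 ± 3.78 TPM (SD, n = 2) in shNT, 1.74 times as high in shLAMP5. This was a log2 fold change of 0.74 ± 0.29 (SE), whose 95% interval ran from 0.074 to 1.41. By limma its p was 0.0336 unadjusted and 0.533 when adjusted over all genes, while an exact two-sided permutation test gave p 0.133. The log2 fold change was 0.46 without shNT 2 and 1.03 without shNT 1.

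MXD4, a close relative with the same corepressor contact, showed a similar difference that rested more on 1 library. It measured 11.5, 10.9, 26.6 and 13.5 TPM in shLAMP5 1 to 4, against 8.28 and 9.61 TPM in shNT 1 and 2. The groups did not overlap, but shLAMP5 3 alone stood far above the other shLAMP5 libraries. The means were 15.6 ± 7.42 TPM (SD, n = 4) in shLAMP5 and 8.95 ± 0.944 TPM (SD, n = 2) in shNT, a log2 fold change of 0.65 (95% interval -0.15 to 1.46, adjusted p 0.606 by limma, exact two-sided permutation p 0.2). Without shLAMP5 3 the log2 fold change was 0.38. Median scaling kept the groups apart, with 16.7 to 30.1 TPM in shLAMP5 against 9.54 and 15.3 TPM in shNT for MXD1, and 10.8 to 25.7 TPM in shLAMP5 against 8.29 and 9.28 TPM in shNT for MXD4.

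Because MXD1 and MXD4 were the members whose groups did not overlap, the 250 bases before their RefSeq start sites (GRCh38.p14, each read on the strand of its gene) are shown, with each E-box CACGTG and each GC box GGGCGG or its reverse CCGCCC in capitals. The MXD1 window is chr2:69914859-69915108 on the plus strand, and the MXD4 window is chr4:2262110-2262359 on the minus strand.
MXD1: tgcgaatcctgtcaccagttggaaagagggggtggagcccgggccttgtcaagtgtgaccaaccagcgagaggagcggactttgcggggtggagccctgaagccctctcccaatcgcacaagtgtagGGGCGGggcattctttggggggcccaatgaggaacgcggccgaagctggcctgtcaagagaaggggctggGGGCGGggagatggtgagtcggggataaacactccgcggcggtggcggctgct
MXD4: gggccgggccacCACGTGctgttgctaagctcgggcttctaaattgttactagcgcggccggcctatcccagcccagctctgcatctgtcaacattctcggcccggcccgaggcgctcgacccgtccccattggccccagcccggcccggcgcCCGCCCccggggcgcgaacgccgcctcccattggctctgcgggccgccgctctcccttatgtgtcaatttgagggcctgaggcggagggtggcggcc
The MXD1 window holds 2 GC boxes, starting 123 and 53 bases before the start site, and no E-box. The MXD4 window holds 1 E-box, starting 238 bases before the start site, and 1 GC box on the reverse strand, at 97 bases. RefSeq promoters were matched for 9 of 10 members, all but MYC, with 14 windows in all. Counting a member if any of its windows held the motif, an E-box lay in 3 of the 9 (MXD4, MNT and MLX) and a GC box in 9 of 9. Some windows of MAX and MGA held no GC box. Of 35116 windows of this length in the table, 6.34% held an E-box and 42.6% a GC box on either strand. These shares are per window, so they are not like the counts per member. These matches of letters are descriptions and do not show binding.

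MXI1, the most abundant antagonist in all but 1 library, had no steady direction. It measured 32.5, 14.6, 31.9 and 39.5 TPM in shLAMP5 1 to 4, against 21.6 and 29.4 TPM in shNT 1 and 2. The values of shLAMP5 1, 3 and 4 exceeded the shNT range, and that of shLAMP5 2 was under it. The log2 fold change of 0.14 (95% interval -0.73 to 1.01, adjusted p 0.938 by limma) was 0.44 without shLAMP5 2, -0.020 without shLAMP5 4 and -0.073 without shNT 1. With library weights it was 0.48. MXD1 exceeded MXI1 only in shLAMP5 2, at 1.42 times its level.

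MXD3, a form known from proliferating cells, had 4.23, 7.83, 3.80 and 5.35 TPM in shLAMP5 1 to 4, against 6.59 and 4.70 TPM in shNT 1 and 2. The groups overlapped, with the highest level in shLAMP5 2, the library in which MXI1 was lowest. Between the groups the log2 fold change was -0.10 (95% interval -0.77 to 0.56, adjusted p 0.943 by limma), and it was 0.015 without shLAMP5 3 and 0.10 without shNT 1.

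Summed over MXD1, MXD3, MXD4 and MXI1, the family measured 66.1, 54.1, 93.6 and 75.8 TPM in shLAMP5 1 to 4, against 51.7 and 53.6 TPM in shNT 1 and 2. All 4 shLAMP5 sums of unscaled TPM lay above both shNT sums, with shLAMP5 2 just above. The makeup of the sum varied: MXI1 supplied 27.0% of it in shLAMP5 2 and 34.1% in shLAMP5 3, between 49.2% and 52.0% in the other shLAMP5 libraries, and 41.8% and 54.8% in shNT 1 and 2. MXD1 supplied 23.1% to 38.4% in shLAMP5 and 18.4% and 29.5% in shNT libraries.

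The ratio of MYC RNA to this sum does not depend on a scaling factor applied to a whole library, as in median scaling. It was not computed under quantile normalization, which matches whole distributions between libraries and has no such factor. It was 3.88, 2.65, 1.76 and 3.60 in shLAMP5 1 to 4, against 4.71 and 5.69 in shNT 1 and 2. The highest shLAMP5 ratio lay below the lowest shNT ratio, and the means were 2.97 ± 0.965 (SD, n = 4) in shLAMP5 and 5.20 ± 0.696 (SD, n = 2) in shNT. With MNT and MGA added to the sum the ratios were 3.43, 2.38, 1.61 and 3.07 in shLAMP5 1 to 4, against 4.08 and 4.81 in shNT 1 and 2, again without overlap. This ratio was put together with the values known and carries no test, and RNA levels say nothing of the proteins that pair with MAX. On unscaled TPM, the lower ratio in shLAMP5 1 and 4 came with MYC levels inside the shNT range and higher MXD sums. In shLAMP5 2 it came with low MYC and an MXD sum near the shNT sums, and in shLAMP5 3 with both. Unlike the ratio, this split between MYC and the MXD sum depends on the scaling factor of each library. Under median scaling, MYC in shLAMP5 1 was 241 TPM, just under the shNT values of 244 and 295 TPM. Division by its factor of 0.839 raises the MXD sum of shLAMP5 2.

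**Figure D2:**
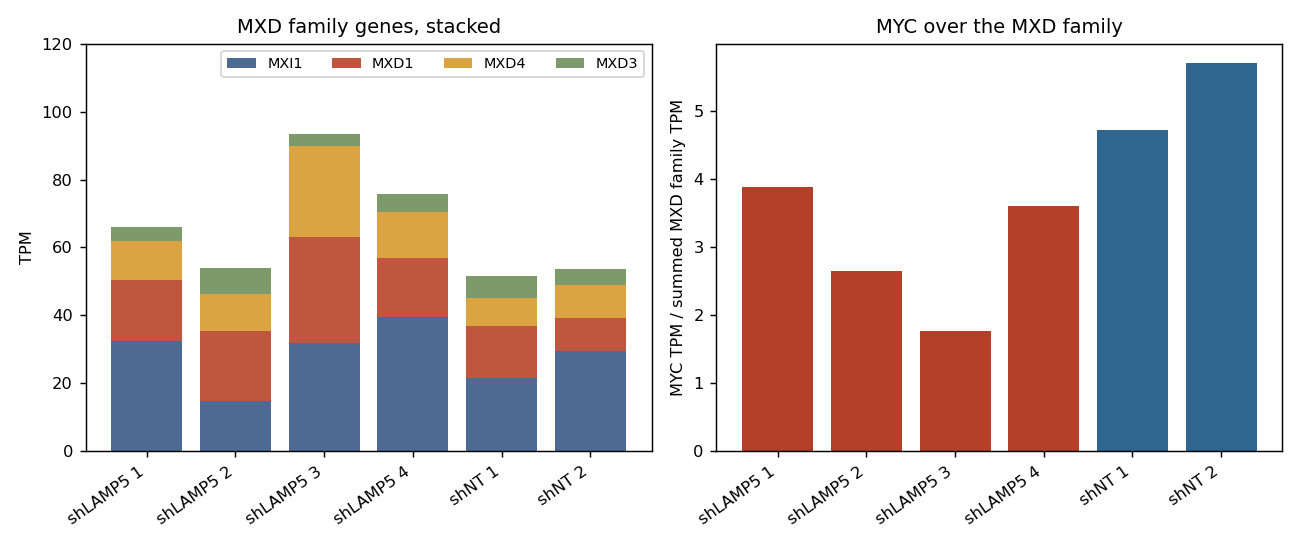
Left, TPM of MXI1, MXD1, MXD4 and MXD3 stacked for each library; right, MYC TPM divided by that sum, with shLAMP5 in red and shNT in blue. The 4 shLAMP5 ratios range from 1.76 to 3.88 and the 2 shNT ratios are 4.71 and 5.69.

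MNT, the broadly expressed antagonist that needs no differentiation signal, measured 6.39, 4.51, 7.98 and 8.30 TPM in shLAMP5 1 to 4, against 4.95 and 7.07 TPM in shNT 1 and 2. Its lowest value was again in shLAMP5 2, and the groups overlapped. Under median scaling the lowest MNT value was in shNT 1, at 4.95 TPM, with 5.38 TPM in shLAMP5 2. Its log2 fold change was 0.14 (95% interval -0.49 to 0.77, adjusted p 0.907 by limma), and it was 0.30 without shLAMP5 2 and -0.080 without shNT 1.

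MGA, which also carries a T-box DNA-binding domain, was the least abundant member and the most variable within a group. It measured 2.24, 1.65, 0.770 and 4.96 TPM in shLAMP5 1 to 4, against 3.09 and 2.74 TPM in shNT 1 and 2. The highest and lowest of all 6 values were both shLAMP5 libraries, 6.44 times apart. The log2 fold change was -0.34 (95% interval -1.35 to 0.67, adjusted p 0.848 by limma), and it was -0.66 without shLAMP5 4 and -0.074 without shLAMP5 3.

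In the parallel arm, MLX measured 34.4, 30.1, 41.7 and 36.9 TPM in shLAMP5 1 to 4, against 41.6 and 39.7 TPM in shNT 1 and 2. The values of shLAMP5 1, 2 and 4 were under the shNT range, and shLAMP5 3 was level with its upper end. For MLX the log2 fold change was -0.19 (95% interval -0.65 to 0.27, adjusted p 0.806 by limma), or -0.11 without shLAMP5 2. MLXIP, the glucose-sensing partner of MLX also called MondoA, measured 16.0, 10.7, 15.8 and 16.5 TPM in shLAMP5 1 to 4, against 12.8 and 16.1 TPM in shNT 1 and 2. Its lowest value was in shLAMP5 2 and the groups overlapped, and its log2 fold change was 0.015 (95% interval -0.53 to 0.56, adjusted p 0.991 by limma), or 0.15 without shLAMP5 2, 0.17 without shNT 2 and -0.14 without shNT 1. MLXIPL, the liver paralog ChREBP, lay between 1.66 and 2.43 TPM in 3 shLAMP5 libraries, at 6.55 TPM in shLAMP5 2, and at 2.05 and 1.80 TPM in shNT 1 and 2.

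**Figure D3:**
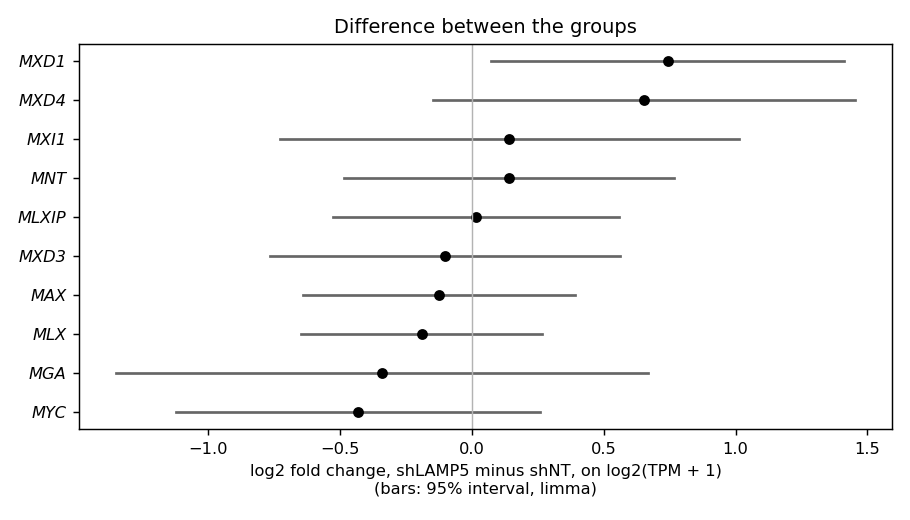
Difference of each network gene in log2(TPM + 1), shLAMP5 minus shNT, with its 95% interval from limma. The interval of MXD1 alone, 0.074 to 1.41, excludes 0 before adjustment over all genes.

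Ranked by mean TPM, the order in shLAMP5 was MYC, MAX, MLX, MXI1, MXD1, MXD4, MLXIP, MNT, MXD3 and MGA. In that order the ranges of neighbours overlapped in 7 of the 9 places, and were separate between MYC and MAX and between MLXIP and MNT. In shNT the order was the same except that MLXIP stood before MXD1 and MXD4. The ranges of MLXIP and MXD1 overlapped there, as did those of MNT and MXD3.

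Libraries of the same group differed in several members at once. In shLAMP5 2 the lowest levels of all 6 libraries were found for MYC, MAX, MXI1, MNT, MLX and MLXIP, and the highest for MXD3. In shLAMP5 3 the highest levels of MXD1, MXD4 and MLX stood beside the lowest of MXD3 and MGA. Scaling of shLAMP5 2 bears on the first of these. Under median scaling its MAX of 48.3 TPM was level with the 48.2 TPM of shLAMP5 4. Its MLX of 35.8 TPM then lay above those of shLAMP5 1 and 4, and its MYC of 171 TPM above that of shLAMP5 3. Its MNT of 5.38 TPM lay above the 4.95 TPM of shNT 1.

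**Figure D4:**
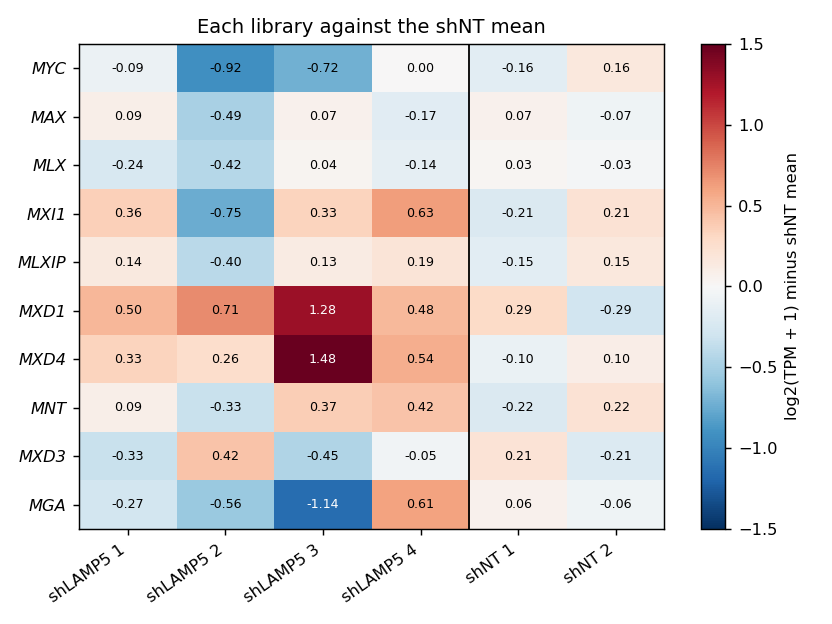
Log2(TPM + 1) of each network gene in each library minus the shNT mean of that gene, with the 4 shLAMP5 libraries left of the line and the 2 shNT libraries right of it. MXD1 and MXD4 are positive in all 4 shLAMP5 libraries, and shLAMP5 2 has negative values for 7 of the 10 genes.

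Partners and targets of the network were described from lists chosen with earlier results of these data known. None of their genes passed the test over all genes in the main fit. With library weights, which gave shLAMP5 2 little weight, 4 of those named (SRM, HSPD1, AURKA and PLK1) did, as did LAMP5. The same weights made other log2 fold changes smaller in size, such as ACTL6A (-0.46), RUVBL1 (-0.28), HDAC2 (-0.18), TFDP1 (-0.34) and WDR5 (-0.21). They made those of PFKFB3 (0.76), TGFBR2 (0.85) and CEBPD (0.76) larger. The counts below are from the main fit and are read beside the shares over all genes given above. Of 16 cofactors that bind MYC or load it on promoters, 14 had negative log2 fold changes, with a median of -0.24, and for 8 every shLAMP5 value lay below both shNT values. For the 2 positive genes every shLAMP5 value lay above both shNT values. ACTL6A, an actin-like subunit of chromatin remodelling complexes, measured 50.9, 23.0, 27.2 and 51.2 TPM in shLAMP5 1 to 4, against 63.4 and 67.0 TPM in shNT 1 and 2 (log2 fold change -0.85, adjusted p 0.544 by limma). It was lowest in the same pair of libraries as MYC. RUVBL1, an ATPase of the TIP60 complex, had a log2 fold change of -0.58 (adjusted p 0.595 by limma), and SMARCB1, a BAF subunit, -0.38 (adjusted p 0.598 by limma).

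Of 16 genes that set the stability of MYC protein, 10 were negative, the median was -0.065 and 7 lay below both shNT libraries. The mitotic kinases PLK1 (log2 fold change -1.06, adjusted p 0.440 by limma) and AURKA (-1.05, adjusted p 0.366 by limma), which also belong to the cell cycle, had the smallest p-values of this list. USP36, a nucleolar deubiquitinase that stabilises MYC, measured 6.39, 6.22, 6.39 and 6.495 TPM in shLAMP5 1 to 4, against 10.1 and 9.38 TPM in shNT 1 and 2. Its shLAMP5 values were closely grouped below both shNT values, with a log2 fold change of -0.54 (adjusted p 0.505 by limma). FBXW7, the ubiquitin ligase subunit that marks MYC for breakdown, had a log2 fold change of 0.097 (adjusted p 0.939 by limma), and -0.017 without shLAMP5 1.

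The SIN3 and histone deacetylase corepressor that the MXD proteins recruit had 13 of 17 genes negative, with a median of -0.19, 3 genes below both shNT libraries and 1 above. SAP30, one of its stabilising subunits, measured 11.9, 12.2, 10.7 and 12.5 TPM in shLAMP5 1 to 4, against 19.6 and 15.8 TPM in shNT 1 and 2 (log2 fold change -0.54, adjusted p 0.520 by limma). The groups did not overlap for SAP30. The scaffold SIN3A had a log2 fold change of -0.19 (adjusted p 0.845 by limma), the histone-binding subunits RBBP7 and RBBP4 had -0.55 and -0.42, and the deacetylase HDAC2 had -0.47 (adjusted p 0.676 by limma). HDAC2 was -0.30 without shLAMP5 2, RBBP4 -0.25 without shNT 2 and SIN3A 0.017 without shNT 2.

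Among the partners of MGA in the variant polycomb complex, 11 of 15 genes were negative, with a median of -0.27, and 5 lay below both shNT libraries. The positive genes numbered 4, or 2 without shLAMP5 1 and 2 without shLAMP5 3. PCGF6, its defining subunit, measured 8.70, 3.83, 6.52 and 7.32 TPM in shLAMP5 1 to 4, against 9.54 and 9.94 TPM in shNT 1 and 2, without overlap (log2 fold change -0.54, adjusted p 0.606 by limma). TFDP1, the partner of E2F proteins, had a log2 fold change of -0.64 (adjusted p 0.578 by limma), and WDR5, a scaffold of chromatin complexes that also binds MYC, -0.46 (adjusted p 0.635 by limma). E2F6 had -0.27 (adjusted p 0.699 by limma) and L3MBTL2, a reader of histone marks, -0.31 (adjusted p 0.716 by limma). Without shLAMP5 2 the value was -0.34 for PCGF6 and -0.16 for L3MBTL2. WDR5, HDAC1 and HDAC2 are counted in more than 1 of these lists.

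Genes reported as targets of MLX with MLXIP or MLXIPL showed no common direction. Of 10 listed, 8 were matched and 6 tested, 3 positive and 3 negative, with a median of 0.066. TXNIP, the best known of them, and ACACA had no matched row. ARRDC4, another arrestin-domain gene and a close companion of TXNIP, measured 10.6, 7.15, 6.20 and 5.39 TPM in shLAMP5 1 to 4, against 5.86 and 5.99 TPM in shNT 1 and 2, with overlapping groups (log2 fold change 0.23, adjusted p 0.827 by limma, and 0.058 without shLAMP5 1). FASN, fatty acid synthase, measured 32.3, 57.2, 22.2 and 36.8 TPM in shLAMP5 1 to 4, against 52.4 and 53.7 TPM in shNT 1 and 2. The groups overlapped for FASN, which was highest in shLAMP5 2 (log2 fold change -0.58, adjusted p 0.639 by limma, and -0.37 without shLAMP5 3). KLF10, a zinc finger repressor, had a log2 fold change of 0.39 (adjusted p 0.727 by limma), which was -0.056 without shNT 2 and 0.84 without shNT 1. PFKFB3, a regulator of glycolysis, measured 33.2, 22.4, 46.2 and 36.4 TPM in shLAMP5 1 to 4, against 20.2 and 21.2 TPM in shNT 1 and 2. It was the 1 gene of this list whose shLAMP5 values all lay above both shNT values (log2 fold change 0.67, adjusted p 0.546 by limma).

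Genes that MYC is known to activate through E-boxes were negative in 24 of 24 tested, with a median of -0.59, and 18 lay below both shNT libraries. Their summed level was 10555, 8201, 8551 and 10304 TPM in shLAMP5 1 to 4, against 12824 and 13524 TPM in shNT 1 and 2. All 4 shLAMP5 sums lay below both shNT sums, including shLAMP5 1 and 4, whose unscaled MYC levels of 256 and 273 TPM lay between those of the shNT libraries. Under median scaling MYC in shLAMP5 1, at 241 TPM, lay just under both shNT values. The part of MYC in these sums was not tested, and the data hold no protein levels. The smallest p-values of this list were those of SRM, spermidine synthase, and HSPD1, a mitochondrial chaperonin. SRM measured 75.8, 101.3, 88.9 and 95.6 TPM in shLAMP5 1 to 4, against 237 and 252 TPM in shNT 1 and 2 (log2 fold change -1.43, adjusted p 0.252 by limma, and 0.0215 with library weights). HSPD1 measured 293, 275, 228 and 301 TPM in shLAMP5 1 to 4, against 647 and 742 TPM in shNT 1 and 2 (log2 fold change -1.34, adjusted p 0.252 by limma, and 0.0215 with library weights). For both genes the shLAMP5 values were close to each other and far under the shNT values. ODC1, ornithine decarboxylase of polyamine synthesis, measured 106, 77.6, 50.1 and 90.9 TPM in shLAMP5 1 to 4, against 137 and 140 TPM in shNT 1 and 2 (log2 fold change -0.81, adjusted p 0.524 by limma). RCC1, the exchange factor of the GTPase RAN, had a log2 fold change of -0.84 (adjusted p 0.491 by limma), and CCND2, a G1 cyclin, -0.13 (adjusted p 0.891 by limma). The groups overlapped for CCND2, which was 0.0034 without shNT 1.

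Of 13 genes that MYC is known to lower, 11 were tested and 9 were positive, with a median of 0.40, and 3 lay above both shNT libraries. CDKN1A, the p21 inhibitor of cyclin-dependent kinases, measured 440, 425, 986 and 377 TPM in shLAMP5 1 to 4, against 302 and 345 TPM in shNT 1 and 2 (log2 fold change 0.67, adjusted p 0.620 by limma, and 0.36 without shLAMP5 3). Like MXD1 and MXD4, it was highest in shLAMP5 3 and did not overlap between the groups. TGFBR2, a receptor of transforming growth factor beta, had a log2 fold change of 0.79 (adjusted p 0.544 by limma) and CEBPD, a transcription factor of myeloid cells, 0.57 (adjusted p 0.601 by limma).

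**Figure D5:**
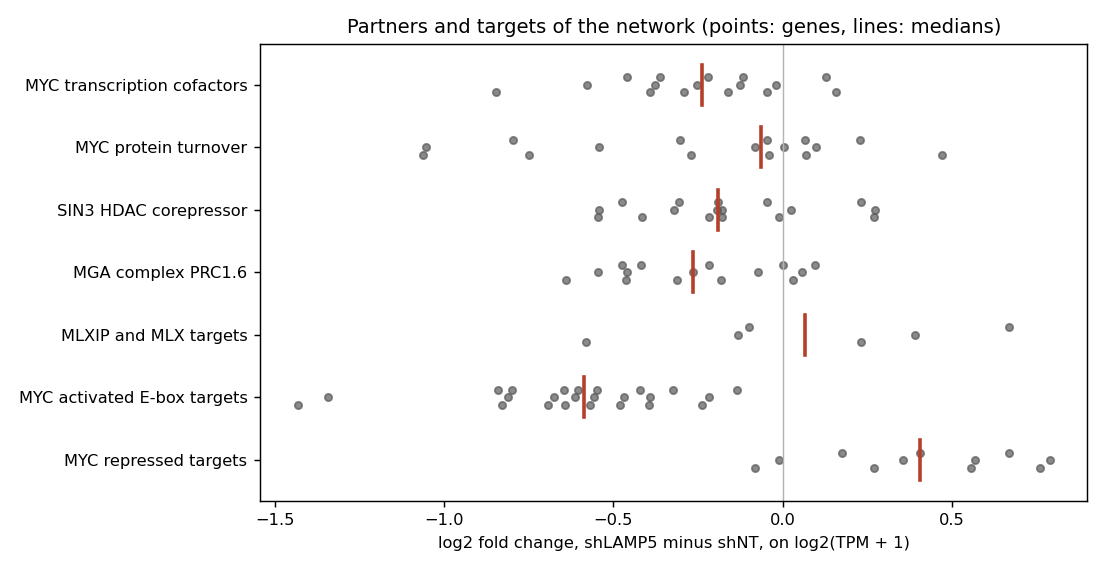
Log2 fold change, shLAMP5 minus shNT, of each tested gene of 7 lists of network partners and targets, with red lines at the list medians. Medians run from -0.59 for MYC activated targets to 0.40 for MYC repressed targets.

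Markers of differentiation and of proliferation are given beside the MXD1 and MXD4 values. Of 15 monocyte markers 11 were tested and 11 positive, with a median log2 fold change of 1.16. Averaged as log2(TPM + 1), the tested genes stood at 7.06, 6.23, 7.68 and 7.12 in shLAMP5 1 to 4, against 5.94 and 5.92 in shNT 1 and 2. The average was highest in shLAMP5 3, where MXD1 and MXD4 were also highest. The library shLAMP5 2, with the next highest MXD1 at 20.7 TPM, had the lowest average of the shLAMP5 libraries, at 6.23. The summed TPM of all 15, set largely by a few abundant genes, ranged from 2417 to 11845 in shLAMP5 and from 2716 to 6914 in shNT libraries, and CD14 stayed at or below 1.39 TPM and FCN1 at or below 0.162 TPM.

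Proliferation markers were negative in 10 of 10, with a median of -1.07. Averaged in the same way they stood at 5.64, 5.38, 4.79 and 5.34 in shLAMP5 1 to 4, against 6.39 and 6.35 in shNT 1 and 2, lowest in shLAMP5 3. In bulk RNA a lower level per cell and fewer cells in a state cannot be told apart, and the part of differentiation or cycling state in the MYC and MXD values was not tested.

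The rule applied to MYC, taken for MXD1 as the member with the largest difference, gave NCOA3 (root mean square difference 0.083), a nuclear receptor coactivator, NKG7 (0.087), a granule membrane protein of lymphocytes and myeloid cells, and ST6GALNAC6 (0.089), a sialyltransferase. NCOA3 measured 11.4, 15.6, 22.4 and 13.6 TPM in shLAMP5 1 to 4, against 11.1 and 6.77 TPM in shNT 1 and 2. As for MXD1, its highest value was in shLAMP5 3 and its lowest in shNT 2.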

How the data were processed

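Libraries were grouped by their titles into 4 shLAMP5 and 2 shNT libraries of MOLM-13. The deposited table gives 39771 Ensembl identifiers in 6 columns without naming a unit. Its values, fractional and totalling 897026 to 912565 in a library, were read as TPM computed by the authors. Per the submitters' processing notes, kallisto and hg19 were used; which transcripts, gene summary and filters they used is not stated in those sources. TPM holds no read number, so no counting interval was computed, and near-identical genes may share reads. Symbols matched 29895 identifiers.

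The test was limma 3.58.1 (R 4.3.3) on log2(TPM + 1), with a trend of variance on mean, no factor besides group, and Benjamini-Hochberg adjustment at 0.05. Its code was checked on simulated data with the same spread for all genes and no library standing apart. That check does not show the power or error of the test in these libraries. The test covered the 13072 genes that reached 1 TPM in 2 or more libraries. Fold changes on this scale understate those of low genes. Single members also had an exact two-sided permutation test (scipy 1.17.1). Tables used pandas 2.3.3 and numpy 2.4.6 in Python 3.11.15, and figures matplotlib 3.10.9. Alternatives were other pseudocounts, filters and scalings, no trend, library weights, each library left out, and the replicate number as a block. Genes named were the members, LAMP5, the 3 smallest p-values of each partner or target list, 12 genes named singly and the nearest profiles. Of those, TERT is given only where 1 library stood apart, TXNIP had no row, and marker lists are given as summaries. Members and lists were chosen with earlier results of these data known, and the MXD sum and its ratio with the values seen. Promoter sequences are RefSeq's, of build GRCh38.p14, which is not the build of the table, and no table coordinates are given.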

Additional observations from a re-analysis of the deposited data

Results flagged for a closer look

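Among 46 genes and ratios checked for 1 shLAMP5 library standing apart from the other 3, 5 had a gap to the nearest library, as a share of the group's range, above Dixon's 95% critical value for 4 samples. Chance gives about 1 in 20. For MXD4, shLAMP5 3 (26.6 TPM) stood above the rest, with a gap of 0.836 of the range (0.8355). For CDKN1A, shLAMP5 3 (986 TPM) stood above the rest, at 0.897 (0.8971). In the other 3, shLAMP5 2 stood apart: below the rest for MLXIP, at 0.876 (0.8759), and above the rest for MLXIPL, at 0.843 (0.8432), and TERT, at 0.879 (0.8789). The check used unscaled TPM. Under median scaling MLXIP came to 12.7 TPM in shLAMP5 2, nearer to the 15.1 to 15.7 TPM of the other shLAMP5 libraries. TERT, the telomerase subunit, measured 0.838, 3.68, 0.456 and 0.847 TPM in shLAMP5 1 to 4, against 1.73 and 4.34 TPM in shNT 1 and 2.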

How the results depend on the processing

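No member was called under any of the 15 alternatives in which it was tested; MXD3, MNT and MGA were not tested at a minimum of 10 TPM. MYC, MAX and MLX kept a negative and MXD1 and MXD4 a positive log2 fold change in all of them: MYC ranged from -0.60 to -0.12, MAX from -0.20 to -0.0044, MLX from -0.33 to -0.11, MXD1 from 0.46 to 1.03 and MXD4 from 0.30 to 0.78. The number of genes called over the whole table was 0, but 56 with no filter on low genes, 210 with library weights and 16 with the replicate block. The members with a positive value numbered 5 in the main fit, 6 with library weights, 3 with the replicate block and between 3 and 5 when 1 library was left out. At a minimum of 10 TPM, where fewer members were tested, they numbered 4. Signs turned for MXD3, MXI1, MNT, MLXIP and MGA. With the replicate block MXD3 was 0.047, MXI1 -0.19, MNT -0.12 and MLXIP -0.13. With library weights MGA, at -0.34 in the main fit, was 0.17. Leaving out 1 library gave -0.31 to 0.10 for MXD3, -0.073 to 0.44 for MXI1, -0.080 to 0.36 for MNT and -0.14 to 0.17 for MLXIP. Of other genes named, library weights turned 5 to called: SRM and HSPD1 (adjusted p 0.0215 each by limma), AURKA (0.0298), PLK1 (0.0302) and LAMP5 (0.0302). They gave MYCL 0.26, and leaving out 1 library gave -0.39 to 0.13 for MYCL, -0.056 to 0.84 for KLF10, -0.41 to 0.017 for SIN3A, -0.017 to 0.26 for FBXW7 and -0.27 to 0.0034 for CCND2. The cause was not tested. The block rests on the numbers 1 and 2 alone, which the titles do not explain. Deviations from the group means of same-numbered libraries correlated at -0.52 and -0.47 over genes. With 2 shNT libraries their deviations are exact opposites, so these values are not independent. They cannot show whether same-numbered libraries were handled together. Library weights gave shLAMP5 2 a weight of 0.193 and shLAMP5 4 one of 3.41. No scaling moved the median of all genes by more than 0.1 on the log2 scale. Depth limits could not be computed from TPM.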
